A study of Mus musculus with 5 samples.

Results

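Mitochondrial ribosomal protein genes were measured on Affymetrix Mouse Genome 430 2.0 arrays in pro-B cells, the earliest committed B-cell progenitors of the bone marrow. The members were all genes with a symbol starting with Mrpl (large subunit) or Mrps (small subunit) and a digit, and each was read from 1 probe set, the brightest one that named no other gene. They numbered 73 of the 17323 genes measured, 45 in the large and 28 in the small subunit. Of the 78 such protein-coding symbols in RefSeq, 5 were not analysed here (Mrpl14, Mrpl30, Mrpl53, Mrpl54 and Mrps30). The pro-B cells (B220+IgM-CD43+CD24+) were isolated by flow cytometry from mice 9 months of age. The 2 Mef2c-deficient samples came from Vav-Cre Mef2cfl/fl mice, in which Cre driven by the Vav promoter deletes Mef2c throughout the haematopoietic system and not in B cells alone. There were 3 control samples. By the methods, controls could be Mef2c fl/fl or Mef2c fl/+ without Cre, or Vav-Cre animals with a single floxed allele, so that a control may also carry Cre and a deleted allele. Which of these genotypes each control had, and whether a sample was a single mouse or a pool, is not stated in the labels or the methods.

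Mitochondria have their own ribosome, which translates the few messenger RNAs of the mitochondrial genome, all of them for subunits of the respiratory chain and ATP synthase. Its proteins are encoded in the nucleus, made in the cytosol and imported. Some descend from bacterial ribosomal proteins and surround the catalytic and decoding RNA, whereas others are specific to mitochondria. MEF2C is a MADS box transcription factor expressed in lymphoid progenitors and B cells.

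Several facts about the arrays bear on every value below. The deposited values are intensities on a linear scale, and their natural logarithms ran from 1.15 to 14.66, the usual range of log2 signals, so that a 2-fold difference in deposited values would be a 1.62-fold difference in signal. All log2 fold changes are Mef2c-deficient minus control on the deposited values unless signal is named. Values in signal assume that the deposited values are powers of e, which is not stated. Across all genes the change followed the level. With genes split into 10 deciles by mean level, the lowest decile had a median log2 fold change of 0.62 and the highest one of -0.91. The bacterial spike-in controls, which are added to the sample at hybridization, had medians of 55929 to 160153 on the control arrays and of 587895 and 197319 on the Mef2c-deficient arrays. In the summed values of 13 measured T and NK cell markers, Mef2c-deficient replicate 2 came to 83547, against 21362 in replicate 1 and 25532 to 47473 in the controls. Cd3e, a subunit of the T-cell receptor complex, was at 13843 on that array and at 232.5 to 387.1 on the other arrays. The list was mixed, since 5 of the 13 had negative log2 fold changes, with Prf1 and Gzma called lower and Ncr1 called higher. Ncr1 was in decile 2, where all genes had a median log2 fold change of 0.64. Prf1 was at 3404 in replicate 2, against 6644 to 9364 in the controls. On the same array the early B-cell factor gene Ebf1 was at 3026, against 29295 to 35416 on the other arrays, and the 14 measured pro-B markers summed to 781711, against 1126481 to 1860773. The sums of 12 myeloid markers overlapped between the groups (2341969 to 4902117 in the controls, 2508206 and 5807810 in the Mef2c-deficient arrays). Those of 8 plasmacytoid dendritic cell markers also overlapped (98917 to 260098, and 156779 and 127176), but the median marker of that list did not (515, 517 and 862.5 in the controls, 1342 and 2300 in the Mef2c-deficient arrays), and Tcf4 was called higher. The 7 erythroid markers summed to 42006 to 73337 in the controls and to 19552 and 17485 in the Mef2c-deficient arrays. That sum was carried by Car2, and the other 6 had positive log2 fold changes, with Slc4a1, the red cell anion exchanger, called higher (187.7, 207.9 and 233.6 in the controls, 854.9 and 2188 in the Mef2c-deficient samples). The median marker of this list was in decile 4, where all genes had a median log2 fold change of 0.52. Slc4a1 was in decile 6, where that median was 0.03. No marker of these lists was at 0. Of the 14 pro-B markers 11 had negative log2 fold changes, and none was called. Their median gene was in decile 10, where 1589 of 1733 genes had negative log2 fold changes and 32.8% were called lower. The B-lineage genes Cd79a (153021 to 257531), Cd79b and Vpreb3 were bright on all 5 arrays. The myeloid marker S100a9 was at 1906818, 2045829 and 978061 in the controls and at 1285283 and 1723651 in the Mef2c-deficient samples. Whether other cells or spike-ins play a part in the results was not tested. The number of members called lower depended on the scaling of the arrays, as given below. With bulk RNA, fewer cells of a type and less RNA per cell cannot be told apart.

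Mef2c itself was at 14006, 20854 and 17220 in the controls and at 7379 and 6219 in the Mef2c-deficient samples. It was lower in both, by 2.53-fold in deposited values and 1.90-fold in signal (log2 fold change -1.34, SE 0.29, limma adjusted p = 0.0918). Whether its probe set lies in the deleted exon is not given.

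Most mitochondrial ribosomal protein genes had lower values without Mef2c. The call for a lower or higher gene required that deposited values differed at least 2-fold with an unadjusted limma p of at most 0.05. This fold would be 1.62-fold in signal. The paper applies a rule of this form to its pre-B arrays. By this measure 42 of the 73 members (57.5%) fell, 1 (Mrps26) rose and 30 passed in neither direction. With a fold of 2 in signal 22 fell, against 10.6% of all genes, and 26 fell without control replicate 1. Under another scaling of the arrays, cyclic loess, 7 fell, against 7.94% of all genes. Over all genes 16.7% were called lower and 9.65% higher. The median log2 fold change of the members was -1.22, or -0.85 in signal, whereas that of all genes was 0.04. On both Mef2c-deficient arrays 54 members lay below every control, which held for 28.4% of all genes, and 18 members overlapped between the groups. None of the members, and no gene of the whole array, reached an adjusted p of 0.05 (limma with Benjamini-Hochberg adjustment over all genes), although 45 members and 5592 genes had an unadjusted p under 0.05. At an adjusted p under 0.10, 23 members were lower (17 large, 6 small), against 8.16% of all genes.

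This excess over the array as a whole was smaller among genes of the same brightness. The members were bright, and 58 of the 73 lay in the top 2 deciles of genes by mean level. In those deciles 36.9% of all genes were called lower, and 64% had both Mef2c-deficient values under every control. Of the 58 members there, 33 (56.9%) fell and 43 (74.1%) lay below, with a median log2 fold change of -1.19 against -1.01 for all genes of the 2 deciles. The distance from other genes differed along the scale. In decile 10, the brightest, 13 of 30 members (43.3%) fell, against 32.8% of all genes, 20 of 28 (71.4%) in decile 9, against 40.9%, and 6 of 8 in decile 8, against 34.1%.

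**Figure D1:**
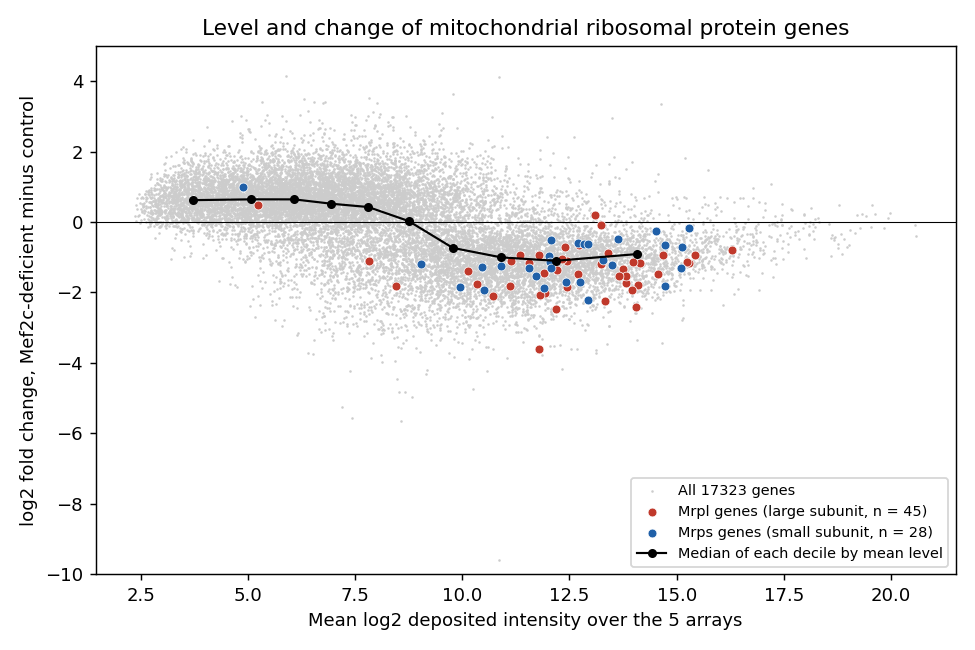
Change against level for all 17323 genes (grey points), with large-subunit members in red and small-subunit members in blue. The horizontal axis is the mean log2 deposited intensity over the 5 arrays and the vertical axis the log2 fold change, Mef2c-deficient minus control. The black line joins the medians of the 10 deciles by level, from 0.62 in the lowest to -0.91 in the highest, and most members lie on its right-hand, negative part.

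Array by array, the median member was at 8431, 9460 and 8843 in the controls and at 4142 and 3664 in the Mef2c-deficient samples. Both Mef2c-deficient medians lay under all 3 control medians. The rank of the members within their array moved far less. Its percentile among the genes of the same array, counted from the dimmest gene upwards, was 88.0, 89.2 and 87.0 in the controls and 87.1 and 86.1 in the Mef2c-deficient samples, so that replicate 1 lay inside the control range and replicate 2 just under it.

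Counts and medians of the 2 subunits were close, with a difference in median log2 fold change of -0.02 (large minus small), which was -0.28 without Mef2c-deficient replicate 1 and -0.37 without replicate 2. In the large subunit 27 of 45 members (60%) fell and none rose, with a median log2 fold change of -1.24. In the small subunit 15 of 28 (53.6%) fell and 1 rose, with a median of -1.21. Both Mef2c-deficient values lay under all controls in 34 large-subunit and 20 small-subunit genes. The large-subunit median was 9579, 10671 and 9579 in the controls and 4176 and 3664 in the Mef2c-deficient samples, and the small-subunit median 8401, 8557 and 6961, and 3699 and 3647. By median rank, large-subunit genes went from percentiles 89.2, 90.2 and 87.8 to 87.2 and 86.1, below all controls, whereas small-subunit genes stood at 87.9, 88.3 and 84.5 and at 85.9 and 86.1, within the control range. Members with a counterpart among bacterial ribosomal proteins fell in 27 of 45 cases (median log2 fold change -1.22) and members specific to the mitochondrial ribosome in 15 of 28 (-1.23).

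**Figure D2:**
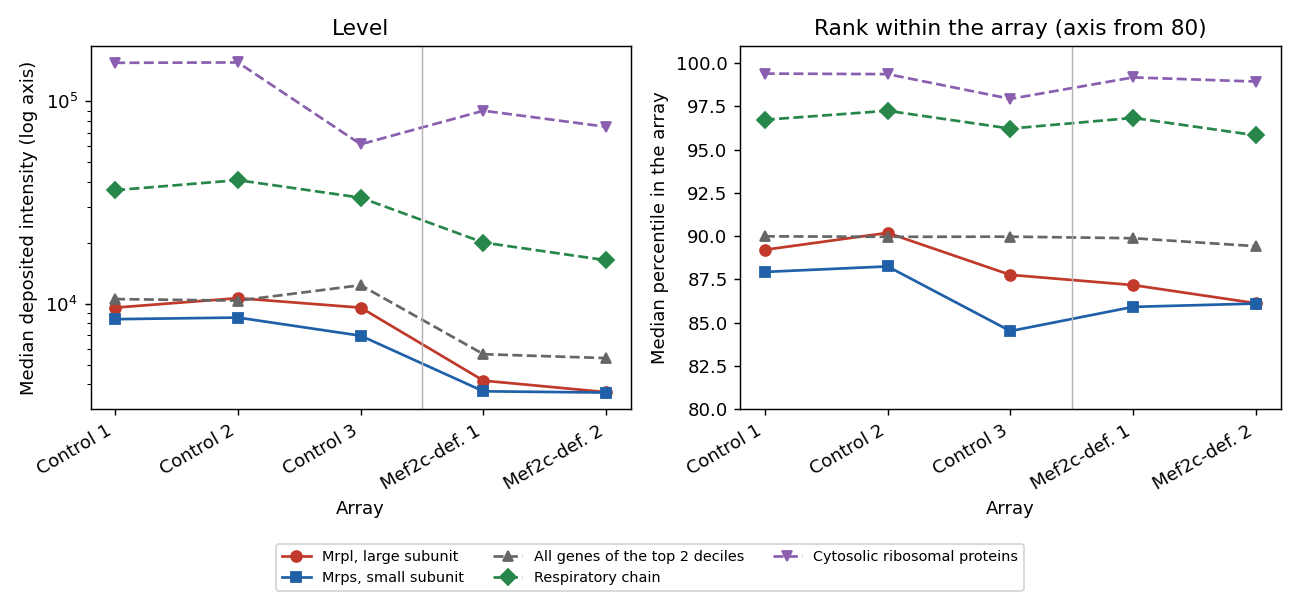
Median deposited intensity (left, log axis) and median percentile within the array (right, axis from 80) of large-subunit, small-subunit, respiratory chain and cytosolic ribosomal protein genes and of all genes of the top 2 deciles, on each of the 5 arrays. The grey line separates the 3 control from the 2 Mef2c-deficient arrays. Large-subunit genes fell from 9579 or more to 4176 or less in level, and from percentile 87.8 or above to 87.2 and 86.1 in rank.

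The 2 Mef2c-deficient samples did not give the same values for many members. They differed over 2-fold in 29 of the 73, with replicate 1 the higher in 20 and replicate 2 in 9. They differed over 4-fold in 8, of which 2 (Mrpl9 and Mrpl43) were called. Over all members neither was the lower one as a rule, since replicate 1 exceeded replicate 2 in 37 genes and fell short of it in 36. Among the controls, replicate 3 was the lowest in 41 members and the highest in 16, and the highest control exceeded the lowest over 2-fold in 12.

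**Figure D3:**
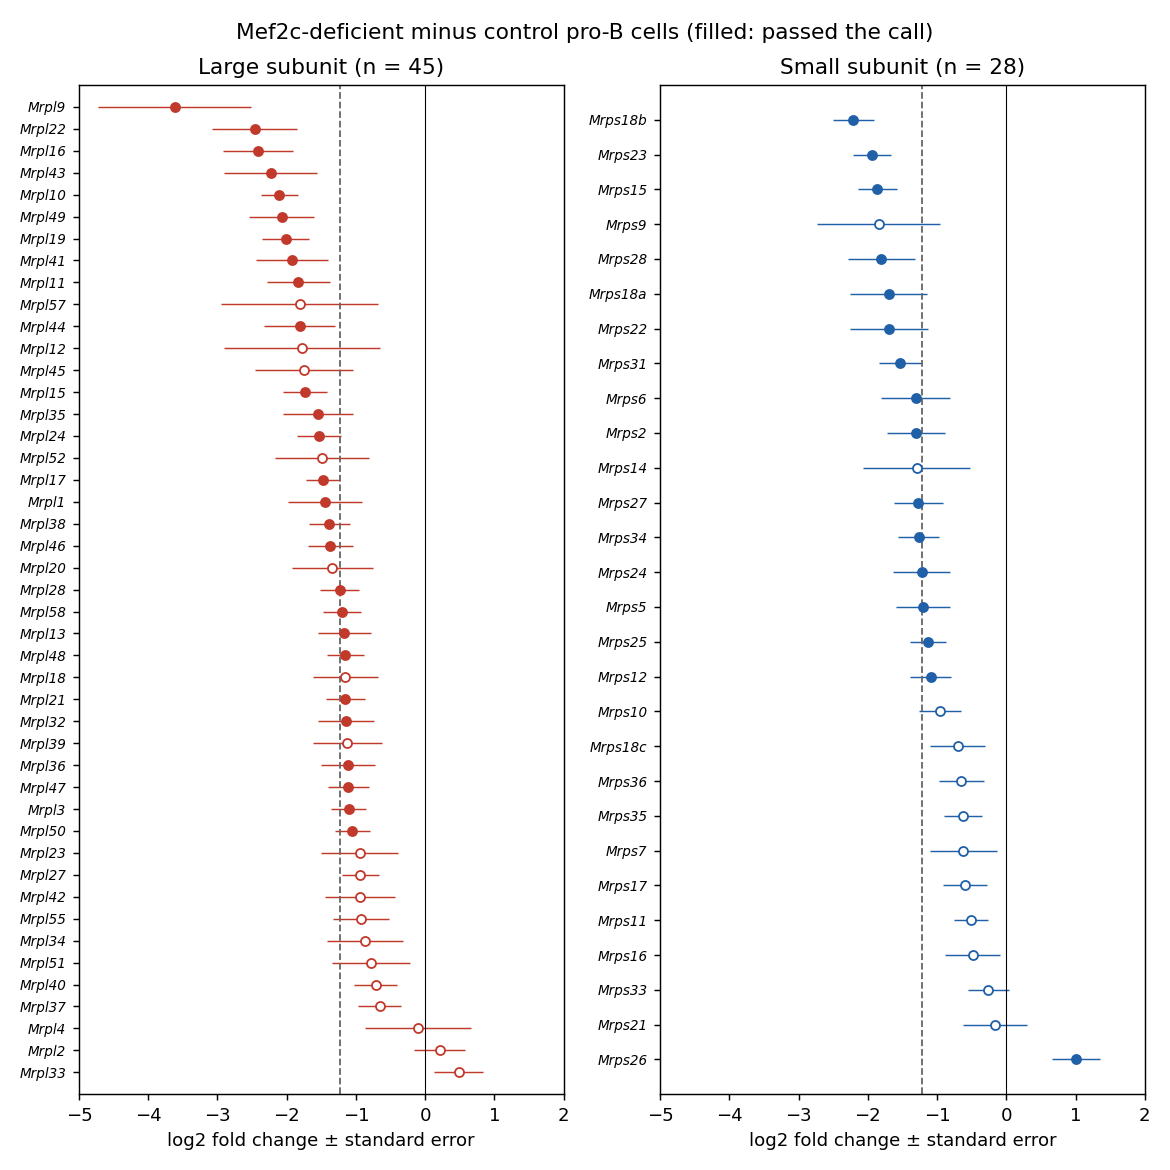
The log2 fold change of every member, Mef2c-deficient minus control, with its limma standard error as a bar. Filled symbols passed the call, and dashed lines mark the medians of -1.24 (large subunit, left) and -1.21 (small subunit, right). Only Mrpl2, Mrpl33 and Mrps26 lie above 0.

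The clearest differences were in genes whose 2 Mef2c-deficient values lay close together. Mrps18b, 1 of 3 mammalian homologues of the bacterial small-subunit protein S18, was at 16362, 16172 and 11616 in the controls and at 2739 and 3614 in the Mef2c-deficient samples. This is a log2 fold change of -2.21 (SE 0.30, limma adjusted p = 0.0895), or 2.89-fold lower in signal. Mrps23, a small-subunit protein with no counterpart among bacterial ribosomal proteins, was at 2969, 2272 and 2249 in the controls and at 589.8 and 708.9 in the Mef2c-deficient samples (log2 fold change -1.94, SE 0.27, adjusted p = 0.0895). In both genes the highest Mef2c-deficient value was far under the lowest control.

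Mrpl10, which anchors the stalk that recruits translation factors to the large subunit, was at 2628, 3634 and 2842 in the controls and at 655.5 and 746 in the Mef2c-deficient samples (log2 fold change -2.10, SE 0.27, adjusted p = 0.0895). Mrpl19, a large-subunit protein at the interface with the small subunit in bacteria, went from 7394, 6251 and 6795 to 2274 and 1241 (log2 fold change -2.02, SE 0.35, adjusted p = 0.0895). Mrpl16, a core protein conserved from bacteria and among the brighter members, went from 39625, 27663 and 33057 to 10314 and 3728 (log2 fold change -2.42, SE 0.50, adjusted p = 0.0907). These 5 genes were the members that fell under all 16 alternatives in which single genes were followed, including those that scale bright and dim genes separately. Mrps23 and Mrpl19 were read from probe sets with the suffixes _x_at and _s_at, which may also match other transcripts. Such probe sets were used for 8 members. Of the 42 genes that fell, 15 kept the call whichever array was left out, and 6 kept it under further quantile normalization, cyclic loess and centring on housekeeping genes alike, the sixth being Mrpl9.

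**Figure D4:**
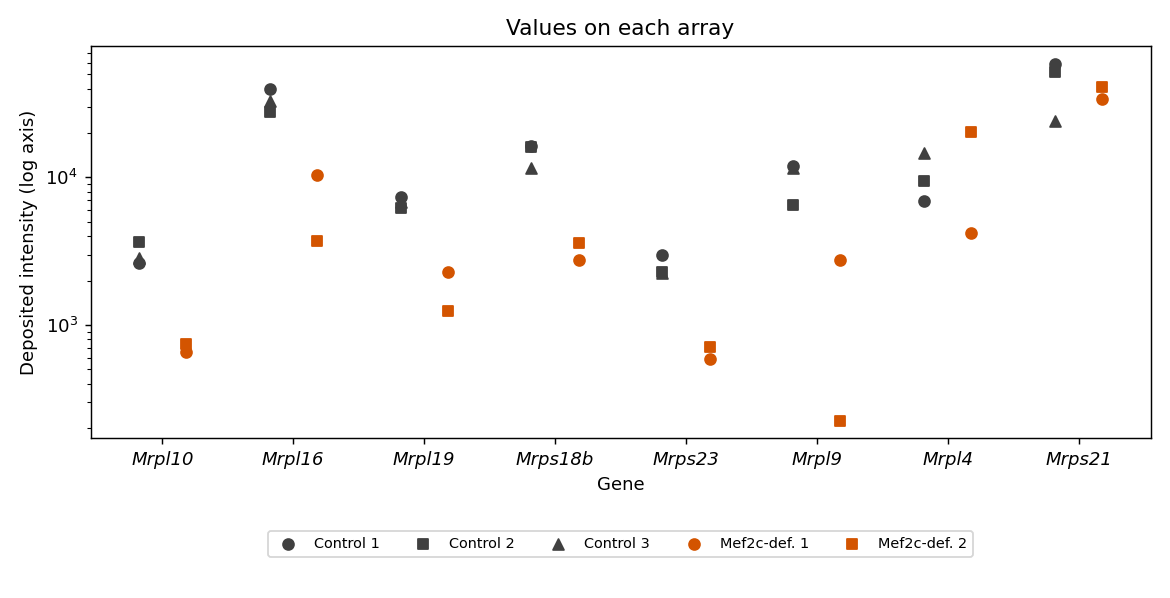
Deposited intensity on each array (log axis) for the 5 members that fell under all 16 alternatives, for Mrpl9, and for Mrpl4 and Mrps21, whose changes were near 0. Grey symbols are the 3 control and orange symbols the 2 Mef2c-deficient samples. The groups are separate in the first 6 genes and overlap in Mrpl4 and Mrps21.

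The promoters of 3 of these genes, and of Mrps21, a bright member that did not fall, are shown to compare their start-site sequences. Each runs from 250 bases before to 50 after the annotated start on the gene's own strand in RefSeq (GRCm38.p6): Mrps18b on the minus strand at chr17:35916391-35916690, Mrps23 on the plus strand at chr11:88204138-88204437, Mrpl10 on the plus strand at chr11:97041332-97041631 and Mrps21 on the minus strand at chr3:95871465-95871764. Mrpl19 had no entry. Capitals mark the ETS core, which reads CTTCCG where it lies on the opposite strand, and in Mrps21 also a match to the NRF1 motif.
Mrps18b: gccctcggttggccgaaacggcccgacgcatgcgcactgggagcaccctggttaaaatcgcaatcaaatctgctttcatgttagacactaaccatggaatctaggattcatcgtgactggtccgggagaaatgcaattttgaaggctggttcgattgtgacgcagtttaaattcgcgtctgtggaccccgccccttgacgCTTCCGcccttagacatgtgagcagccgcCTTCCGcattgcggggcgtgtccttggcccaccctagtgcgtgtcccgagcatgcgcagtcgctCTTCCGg
Mrps23: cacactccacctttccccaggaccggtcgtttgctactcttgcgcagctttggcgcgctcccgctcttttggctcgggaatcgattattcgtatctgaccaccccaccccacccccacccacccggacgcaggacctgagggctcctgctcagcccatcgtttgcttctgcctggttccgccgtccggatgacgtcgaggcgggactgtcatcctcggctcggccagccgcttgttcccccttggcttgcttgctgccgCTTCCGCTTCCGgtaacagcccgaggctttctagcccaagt
Mrpl10: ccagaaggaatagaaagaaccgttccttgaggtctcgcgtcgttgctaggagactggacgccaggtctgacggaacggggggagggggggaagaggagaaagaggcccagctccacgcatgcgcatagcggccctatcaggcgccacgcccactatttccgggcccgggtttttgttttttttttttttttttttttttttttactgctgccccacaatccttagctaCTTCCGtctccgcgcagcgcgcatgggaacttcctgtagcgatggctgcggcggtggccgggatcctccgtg
Mrps21: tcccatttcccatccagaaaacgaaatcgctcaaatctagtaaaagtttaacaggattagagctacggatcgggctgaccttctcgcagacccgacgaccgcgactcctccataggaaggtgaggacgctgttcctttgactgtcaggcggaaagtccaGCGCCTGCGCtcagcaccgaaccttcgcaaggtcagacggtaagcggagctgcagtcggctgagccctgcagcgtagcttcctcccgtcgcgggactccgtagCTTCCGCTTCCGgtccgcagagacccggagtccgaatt

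All 4 windows held the ETS core, and Mrps23 and Mrps21 each held it 2 times in tandem just after the start. Of the 65 members with a promoter entry, 38 (58.5%) held CGGAAG on either strand, against 23.5% of 17492 protein-coding genes and 42.5% of the 2854 promoters of genes in the top 2 deciles of level. The YY1 motif AAGATGGC was found in 12 (18.5%), against 3.57% of all and 6.97% of the bright genes. The NRF1 motif, bound by a regulator of nuclear genes for mitochondrial proteins, was found in 11 (16.9%), against 7.17% and 14.7%. TATAAA was found in 5 (7.69%), against 14.8% and 8.80%. The members that fell and those that did not held the ETS core in 22 of 36 and 16 of 29, the YY1 motif in 8 of 36 and 4 of 29, and the NRF1 motif in 4 of 36 and 7 of 29. For MEF2 proteins, a narrow form of their binding consensus was searched, with a fixed first and last base. Forms with other bases at these ends were not searched. No member window held the narrow form, which was found in 0.583% of all promoters. This says only that the narrow form is not in these windows, and whether other MEF2 sites are there was not tested.

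Many members share their start region with a neighbouring gene on the other strand. An opposite start lay within 1000 bases upstream in 22 of the 65 members (33.8%), against 8.48% of all 17492 genes. The share among bright genes was not computed. Of these 22 members 12 fell, near the share of all members, of their partners 7 fell, and in 3 pairs both did. The median partner was in decile 8 of level, where 34.1% of all genes were called lower. The 3 were Mrpl43 with Twnk, the mitochondrial DNA helicase gene, Mrps12 with Sars2, a mitochondrial seryl-tRNA synthetase gene, and Mrpl41 with Pnpla7. Mrpl46 and Mrps11 are each other's partners, 42 bases apart. Mrpl46 fell (log2 fold change -1.37), and Mrps11, at 5344, 5161 and 4455 in the controls and 3303 and 3680 in the Mef2c-deficient samples, did not reach a 2-fold difference (-0.51). Mrpl49 fell (-2.07), whereas its partner Fau, a cytosolic ribosomal protein gene 192 bases away, had a log2 fold change of 0.01.

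Among members of the large-subunit core, Mrpl9 had the lowest log2 fold change of all members, -3.62, and also a wide error (SE 1.10, adjusted p = 0.116). It was at 12031, 6484 and 11522 in the controls and at 2752 and 225.2 in the Mef2c-deficient samples, so that both lay under every control but differed 12.2-fold from each other. Mrpl22, which lines the tunnel through which the new protein leaves, was at 9900, 13807 and 5848, and at 2868 and 986.5 (log2 fold change -2.46, SE 0.61, adjusted p = 0.097). Mrpl4, another protein of the tunnel wall, was at 6948, 9460 and 14669, and at 4176 and 20394 (-0.10, SE 0.76). Its Mef2c-deficient samples were the lowest and the highest of the 5 values. Mrpl2, a conserved protein next to the peptidyl transferase centre, was at 7283, 11084 and 7065, and at 7589 and 12136, with overlapping groups and a log2 fold change of 0.21 (SE 0.36). It passed as higher with further quantile normalization (1.12) and cyclic loess (1.26).

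Of the stalk proteins, Mrpl11 fell beside Mrpl10, from 12504, 10671 and 5890 to 3385 and 1983 (log2 fold change -1.83). Mrpl12, the stalk protein that contacts translation factors, was at 42244, 55353 and 10265 in the controls and at 22156 and 3194 in the Mef2c-deficient samples. Its groups overlapped, and it did not pass (log2 fold change -1.78, SE 1.12). Mrpl45, which lies at the contact of the ribosome with the inner membrane, had both Mef2c-deficient values (299.9 and 1321) under the controls (3119, 1819 and 1671), with an unadjusted p of 0.0576 in limma.

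Large-subunit proteins without a counterpart among bacterial ribosomal proteins fell in 9 of 18 cases. Mrpl43 was at 19778, 17575 and 20673 in the controls and at 8806 and 1917 in the Mef2c-deficient samples (log2 fold change -2.23, SE 0.68, adjusted p = 0.115). The controls were close together and the Mef2c-deficient pair far apart. Mrpl49 went from 5376, 5048 and 9495 to 1072 and 2132 (SE 0.47, adjusted p = 0.0938). Mrpl41 went from 31743, 33148 and 18384 to 11243 and 4500 (log2 fold change -1.92, SE 0.52, adjusted p = 0.104). Mrpl58, a peptidyl-tRNA hydrolase built into the large subunit, went from 14447, 13866 and 12249 to 5001 and 6881 (-1.20, SE 0.27, adjusted p = 0.0938), and its 3 controls and 2 Mef2c-deficient values were each close together.

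The 3 brightest large-subunit genes did not pass. Mrpl51 was at 162809, 93957 and 63036 in the controls and at 86644 and 38155 in the Mef2c-deficient samples (log2 fold change -0.78, SE 0.57), and Mrpl42 at 57637, 45017 and 72981 and at 18345 and 49062 (-0.94, SE 0.51). In both, 1 Mef2c-deficient value lay inside the control range. Mrpl18, related to the bacterial protein that binds 5S ribosomal RNA, was at 50933, 72900 and 44959 and at 37898 and 16190, below all controls (-1.15, SE 0.47). Mrpl33 was dim on every array (24.53 to 38.4 in the controls, 37.35 and 56.45 in the Mef2c-deficient samples), below the array median each time.

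Of the 3 S18 homologues 2 fell. Mrps18b is described above. Mrps18a, which structures of the mammalian ribosome place in the large subunit despite its name, went from 8371, 8411 and 9702 to 1480 and 4980 (log2 fold change -1.70, SE 0.56, adjusted p = 0.125). Mrps18c, the paralogue that occupies the bacterial S18 position, was at 45402, 60575 and 29608 and at 22746 and 31220 (-0.70, SE 0.40). Its groups overlapped and it did not pass. The differences among the 3 paralogues were not tested.

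Other conserved small-subunit proteins fell. Mrps15, which binds the ribosomal RNA early in assembly in bacteria, went from 5439, 7566 and 6482 to 1590 and 1967 (log2 fold change -1.86, SE 0.28, adjusted p = 0.0895). Mrps28 went from 49896, 47816 and 38052 to 21004 and 7893 (-1.80, SE 0.48, adjusted p = 0.103) and was also among the 3 brightest small-subunit genes. Mrps6 went from 6007, 5418 and 7083 to 4142 and 1480 (-1.31, SE 0.50, adjusted p = 0.149). Mrps12, a protein of the decoding centre, went from 14077, 11839 and 14585 to 5173 and 7714 (-1.09, SE 0.30, adjusted p = 0.104). In each of these 4 genes both Mef2c-deficient samples lay under all controls.

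Of the small-subunit proteins specific to mitochondria, 6 of 10 fell. Mrps22 went from 12389, 12171 and 8843 to 6143 and 1874 (log2 fold change -1.70, SE 0.56, adjusted p = 0.127), and Mrps31 from 4611, 5206 and 5667 to 2245 and 1414 (-1.53, SE 0.31, adjusted p = 0.0907). Mrps33 was at 30022, 25846 and 20474 and at 23559 and 18756 (-0.26, SE 0.29). Mrps36, which carries a ribosomal name but is a subunit of the alpha-ketoglutarate dehydrogenase complex, was at 34221, 36477 and 27006 and at 16234 and 26143 (-0.65, SE 0.33), under all controls but short of a 2-fold difference. Mrps26 was the 1 member that rose, from 24.17, 23.63 and 19.26 to 33.41 and 59.54 (2.01-fold, SE 0.35 on the log2 scale, adjusted p = 0.132). The call was lost under most alternatives, among them further quantile normalization (log2 fold change 0.43), cyclic loess (0.39), array weights (0.92) and leaving out any array but Mef2c-deficient replicate 1. Like Mrpl33 it was below the array median on all 5 arrays, and all genes of its decile had a median log2 fold change of 0.64.

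Other conserved small-subunit genes overlapped the controls and did not pass. Mrps14 was at 57535, 49744 and 44093 and at 49242 and 8471 (log2 fold change -1.30, SE 0.77), with Mef2c-deficient replicate 1 inside the control range. Mrps21 was at 58909, 51943 and 24206 and at 34220 and 41210 (-0.16, SE 0.47), both inside the control range. Mrps16 was at 17993, 18466 and 9275 and at 10452 and 10371 (-0.48, SE 0.40), again both inside it. In all, of the 30 members that passed in neither direction 12 had both Mef2c-deficient values under every control, 9 had a fold of at least 2 but a p above the threshold, and 2 (Mrps10 and Mrpl27) had the reverse.

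The remaining genes of mitochondrial translation were lower in part, against 16.7% of all genes called lower. Of 3 ribosomal proteins with other names that were measured, Ptcd3 fell (19903, 12218 and 17572 in the controls, 7056 and 9173 in the Mef2c-deficient samples, log2 fold change -1.01), and Chchd1 (-0.84) and Dap3 (-0.80) did not reach a 2-fold difference. Of 15 translation factors 7 (46.7%) fell and none rose (median log2 fold change -1.08), and their median gene was in decile 8, with 34.1% of all genes lower. They included Pdf, which removes the formyl group from new mitochondrial proteins (10190, 8098 and 7620 to 3202 and 736.9, -2.48), and the elongation factors Gfm1 (10738, 11611 and 8443 to 1989 and 2554, -2.17) and Tufm (4706, 3256 and 4221 to 1579 and 625.2, -2.02). For Gfm1 the 2 Mef2c-deficient values were close together, as for Mrps18b and Mrpl10.

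Of 16 mitochondrial aminoacyl-tRNA synthetases 5 (31.2%) fell (median of the list -0.66), and their median gene was in decile 7, with 25.4% of all genes lower. Vars2, which charges the valine tRNA, went from 874.1, 993.6 and 1021 to 180.5 and 195.2 (-2.36), Yars2 from 1604, 1971 and 1136 to 367.5 and 269.7 (-2.28) and Sars2 from 1273, 1199 and 1066 to 533.9 and 367.5 (-1.41). Cars2 rose, from 99.48, 118.5 and 107.4 to 180.5 and 284.5 (1.07). It was in decile 4, where all genes had a median log2 fold change of 0.52 and 286 of 1733 were called higher. Of 24 assembly factors, which process, modify or fold the ribosomal RNA and load the proteins, 9 (37.5%) fell and none rose (median -1.01), with the list's middle between deciles 7 and 8, where 25.4% and 34.1% of all genes were lower. The lowest were Rcc1l (2165, 1224 and 1511 to 554.9 and 106.8, -2.71), Mterf3 (2911, 2573 and 4021 to 1243 and 186.6, -2.69) and Mrm1, which methylates the large ribosomal RNA (2058, 2914 and 2737 to 968.5 and 314.5, -2.20). In all 3 of these, Mef2c-deficient replicate 2 was the lowest sample.

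Set beside the proteins of the cytosolic ribosome and of the respiratory chain, the mitochondrial ribosome had more calls. Of 44 cytosolic ribosomal protein genes 9 (20.5%) fell, with a median log2 fold change of -0.46, and of 81 respiratory chain and ATP synthase genes 19 (23.5%), with a median of -0.78. Both lists were brighter, and 32.8% of all genes in decile 10 were called lower. Of the 8 measured housekeeping genes 5 (62.5%) fell, with a median of -1.09. Cytosolic ribosomal protein genes had a median of 154999, 155688 and 61405 in the controls and of 89936 and 74905 in the Mef2c-deficient samples, where control replicate 3 was lower than both Mef2c-deficient samples. Respiratory chain genes had medians of 36420, 40830 and 33451 and of 20080 and 16417, which did not overlap. The differences between these lists were not tested.

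How many members fell depended on the scaling of the arrays. With a further quantile normalization 9 members fell, with cyclic loess 7 and with centring on 8 housekeeping genes 9, against 7.83%, 7.94% and 3.92% of all genes. The median log2 fold change of the members was then -0.39, -0.29 and -0.43, and the median of all genes 0.03, 0.01 and 0.84. After centring each array on its median, 44 members fell (60.3%), against 18.5% of all genes. Leaving out Mef2c-deficient replicate 2, the sample with the high T-cell markers, left 32 members lower (22 large, 10 small), against 14.2% of all genes, with the lone sample assumed to vary like the controls.

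**Figure D5:**
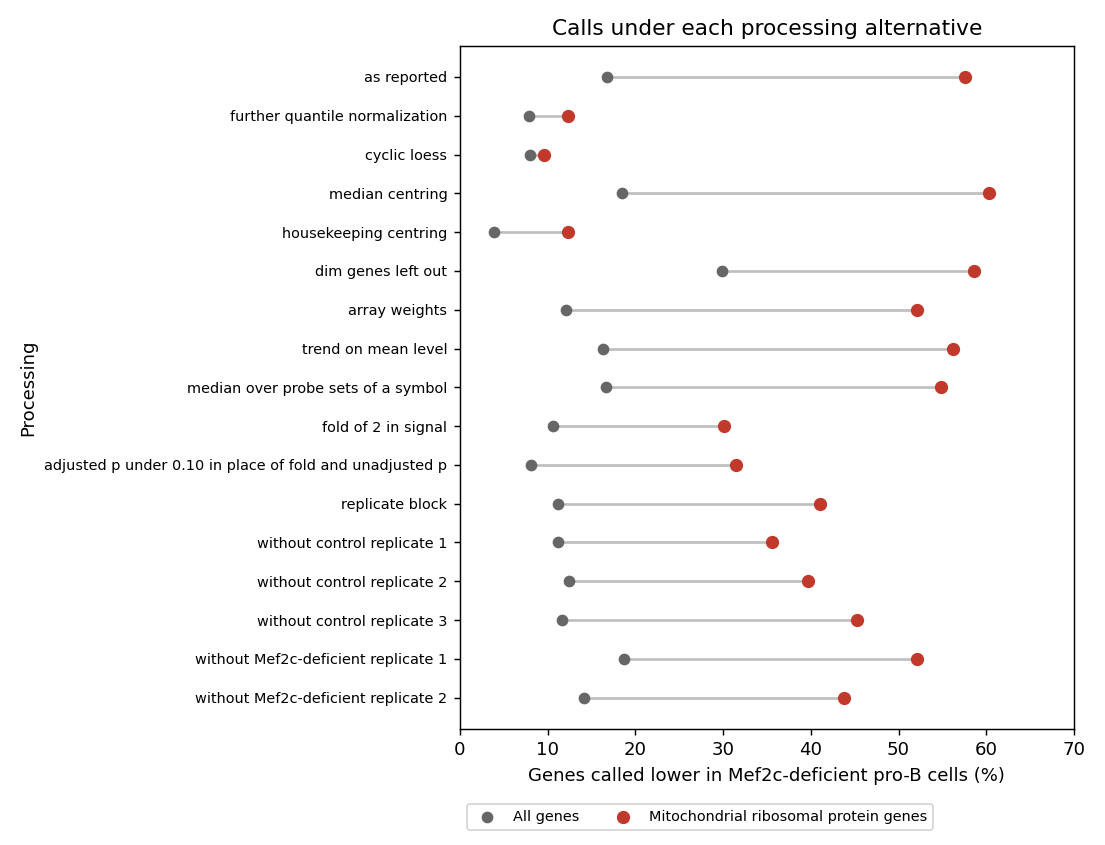
Percentage of mitochondrial ribosomal protein genes (red) and of all genes (grey) called lower in Mef2c-deficient pro-B cells, as reported (top) and under each processing alternative, on an axis from 0 to 70%. The 2 points are 57.5% and 16.7% as reported and come close to each other with further quantile normalization (12.3% and 7.83%) and cyclic loess (9.59% and 7.94%).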

How the data were processed

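RNA of 5 samples of sorted pro-B cells (3 control, 2 Mef2c-deficient) was hybridized to 1 array each. Per the labels and the study's methods, the authors normalized the arrays with RMA and tested genes with limma; the deposited values are intensities on a linear scale, whose base is not stated. Probe sets whose annotation gave exactly 1 symbol were kept (17621 of 23835), and the brightest probe set per symbol was used. Here log2 of the deposited values was fitted with limma 3.58.1 (R 4.3.3; lmFit and eBayes) over all 17323 genes, with 3 control and 2 Mef2c-deficient arrays, and p-values were adjusted by the Benjamini-Hochberg method over all genes. The authors' filter on detection calls was not applied, and the number of arrays limits the precision. Nothing in the labels says whether samples were separate mice, so p-values measure the spread between these samples. A gene was called at a 2-fold difference and an unadjusted p of 0.05. Members with described values were, in each subunit, the 8 lowest of those that fell, all that rose, the 3 nearest to 0, the 3 brightest in controls, Mrps18a to Mrps18c and Mrps36, and in each other list the 3 lowest that fell and the 3 highest that rose; Mrpl11, Mrpl12, Mrpl45, Mrpl58, Mrps11, Mrps12 and the genes sharing a start region were added after their values were seen. The members, lists and promoter motifs were chosen with earlier results of these data known. Promoters came from RefSeq (GRCm38.p6); 65 of 73 members matched, and both strands were searched. The fit was tested on simulated data. Alternatives were other scalings, array weights, a mean trend, other probe set rules, other thresholds, a replicate block and leaving out each array.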

Additional observations from a re-analysis of the deposited data

How the results depend on the processing

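Of the alternatives, array weights, a trend on the mean level, median centring, other rules for probe sets and leaving out dim genes gave 38 to 44 members lower, near the 42 reported. Further quantile normalization gave 9, cyclic loess 7 and housekeeping centring 9, with median log2 fold changes of -0.39, -0.29 and -0.43; a fold of 2 in signal gave 22, and an adjusted p under 0.10 in place of the reported thresholds 23. Leaving out each array gave 26 (without control replicate 1) to 38. The number of members higher was 1 as reported (Mrps26), 1 with further quantile normalization and with cyclic loess (Mrpl2 in place of Mrps26), 2 with housekeeping centring and 0 with median centring, without dim genes, with array weights, a fold of 2 in signal, an adjusted p under 0.10 or the replicate block, and 0 to 1 with each array left out. The large-minus-small difference in medians ranged from -0.37 to 0.020 with each array left out, with -0.28 without Mef2c-deficient replicate 1 and -0.37 without replicate 2. A limma adjusted p under 0.05 in either direction was reached by 8 members (10.96%, against 37.6% of all genes) with housekeeping centring. Under that centring 7298 genes were called higher and 679 lower. No member reached that adjusted p under the other settings that kept both Mef2c-deficient samples. With 1 Mef2c-deficient sample left, the residual spread comes from the controls alone, so no adjusted p is given for those fits. The median log2 fold change of the members was -1.26 without Mef2c-deficient replicate 1 and -1.13 without Mef2c-deficient replicate 2. With the replicate block 30 members were lower. The deviations of same-numbered samples from their group means correlated at 0.12 and -0.01 in 2 pairs. As the deviations of the 2 Mef2c-deficient samples mirror each other, this cannot decide whether same-numbered samples were paired.

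Negative log2 fold changes were found in 70 members as reported, 57 with further quantile normalization, 53 with cyclic loess and 57 with housekeeping centring, which adds 1 constant to every gene and so turns small negative values by construction. As reported, 8431 of all 17323 genes also had negative values. In the top 2 deciles by level 3161 of 3465 genes and 57 of 58 members did. The share of all genes was not counted under the other scalings. Members added after their values were seen, such as Mrps11, were not followed in sign. Of the members chosen by the rule for described values, the sign turned for these. With the arrays quantile-normalized again, scaled by cyclic loess or centred on housekeeping genes, in that order, the log2 fold change was 0.77, 0.95 and 0.70 for Mrpl4, 0.53, 0.77 and 0.64 for Mrps21, 0.60, 0.73 and 0.54 for Mrps33, 0.43, 0.55 and 0.31 for Mrps16, 0.014, 0.24 and 0.096 for Mrps18c and 0.17, 0.32 and 0.15 for Mrps36. Under the first 2 it was -0.050 and -0.12 for Mrpl33, and under the last 2 it was 0.062 and 0.017 for Mrpl51. Mrpl4 was also at 0.18 with array weights, 0.19 with the replicate block, 0.19 without control replicate 3 and from -1.24 to 1.05 with each array left out (1.05 without Mef2c-deficient replicate 1), Mrpl2 at -0.13 without Mef2c-deficient replicate 2, and Mrps21 between -0.56 and 0.083 with each array left out (0.083 without control replicate 1). Apart from housekeeping centring, the cause was not tested.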
